A study of Drosophila melanogaster with 12 samples.

Results

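The dpr and DIP genes were described here in sorted cells of the Drosophila larval brain. They were chosen by name: every row of the deposited expression table whose FlyBase identifier carries the symbol dpr with a number, or a symbol that begins with DIP-, is a member. The rule found 32 genes, 21 dpr and 11 DIP, of the 12610 genes in the table. Each of the 32 passed the filter on low values, which kept 9912 genes. Brains of larvae early in instar 3 were dissociated and their cells were sorted by FACS on GFP, the mark of Rfx expression. Rfx encodes a transcription factor best known for driving cilium genes. The 4 groups were GFP-positive cells of wild-type (WT) brains, GFP-negative cells of WT brains, GFP-positive cells of rfx knock-out (KO) brains and GFP-negative cells of rfx KO brains, with 3 libraries in each. The knock-out allele and the construct that carries GFP are not given in the sources used here. The labels call the cells of every group neurons and do not tell whether libraries came from different animals, so every p-value here reflects library-to-library spread, which may be technical.

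Dpr proteins (defective proboscis extension response) and DIPs (Dpr-interacting proteins) are cell surface proteins of the immunoglobulin superfamily. A Dpr on one neuron binds a particular DIP on another, and such pairs are known from the fly visual system, the mushroom body and the neuromuscular junction, where they take part in the choice of synaptic partners and in the survival of neurons. Each neuron type is known to carry its own combination of them.

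Binding assays known from the literature place most members in groups of partners. DIP-alpha binds dpr6 and dpr10, and DIP-beta binds dpr8, dpr9 and dpr21. DIP-gamma binds dpr11, dpr15, dpr16 and dpr17, and DIP-delta binds dpr12. DIP-epsilon and DIP-zeta share dpr13, dpr14, dpr18, dpr19 and dpr20, while DIP-eta, DIP-theta and DIP-iota share dpr1 to dpr5. The 3 members dpr7, DIP-kappa and DIP-lambda were left without a group.

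The libraries held 20301256 to 29771321 reads over the genes of the table. Normalised read counts, on the CPM scale, are given below, and group values are means ± SD of 3 libraries. Rfx itself was at 2793 ± 217 in GFP-positive cells of WT brains and 73.7 ± 0.358 in their GFP-negative cells. In KO brains it stood at 1126 ± 170 in GFP-positive and 53.0 ± 1.30 in GFP-negative cells. The fall in GFP-positive cells was called (log2 difference -1.32, SE 0.11, limma with Benjamini-Hochberg adjusted p = 1.03e-05). Summed levels of 13 pan-neuronal genes ran from 11195 to 14519 in WT GFP-positive and from 5905 to 6931 in WT GFP-negative libraries. Those of 12 neuroblast and progenitor genes ran from 86.9 to 100.1 in WT GFP-positive and from 1918 to 2377 in WT GFP-negative libraries, so the GFP-negative cells labelled as neurons also carried progenitor RNA. In such bulk samples fewer cells of a type and less RNA per cell cannot be told apart.

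Libraries did not all stand close to their group. Members sat above their group mean in nearly every case in replicate 2 of 3 groups: 30 of 32 in WT GFP-positive, 31 of 32 in KO GFP-positive and 30 of 32 in KO GFP-negative cells. Their median deviation from the group mean there was 0.47, 0.37 and 0.32 on the log2 scale. In replicate 3 of KO GFP-negative cells only 2 of 32 sat above the mean, and the median deviation was -0.41. The 13 pan-neuronal genes deviated the same way in these 4 libraries, by 0.39, 0.36, 0.26 and -0.32, while the median over all tested genes stayed between 0.00 and 0.03. Long genes of any kind also moved this way. The 298 tested genes that span over 50 kb had medians of 0.16, 0.19, 0.13 and -0.12 there. The 6484 that span under 5 kb had 0.022, -0.005, -0.004 and 0.031. The part of the pan-neuronal genes and of gene span in the results was not tested. In WT GFP-positive cells replicate 2 was the highest library for 21 of 21 dpr genes, at a median of 1.92 times the mean of the other libraries, and for 7 of 11 DIP genes, at a median of 1.18 times. In KO GFP-positive cells it was highest for 20 of 21 dpr genes (median 1.65 times) and 6 of 11 DIP genes (1.17 times). In KO GFP-negative cells the dpr and DIP medians lay close together, at 1.42 and 1.38 times, with replicate 2 highest for 19 of 21 and 8 of 11 genes. WT GFP-positive replicate 2 also held 12.2% of its reads in rRNA genes and KO GFP-positive replicate 3 held 2.54%, against at most 0.976% in the rest.

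**Figure D1:**
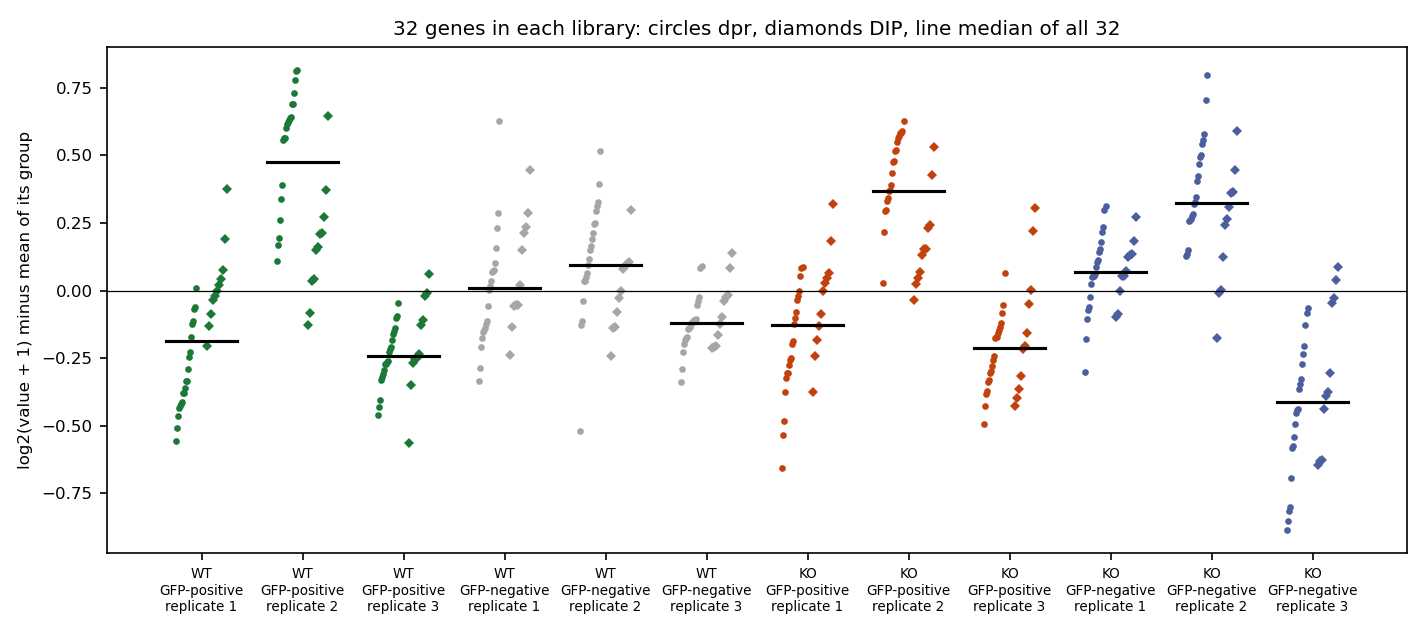
Deviation of each of the 32 members from its group mean (log2 of the value plus 1, vertical axis) in each of the 12 libraries (horizontal axis); circles are dpr and diamonds DIP genes, coloured by group, and the black line is the median of all 32. The medians of replicate 2 lie at 0.47 in WT GFP-positive, 0.37 in KO GFP-positive and 0.32 in KO GFP-negative cells, and that of KO GFP-negative replicate 3 at -0.41.

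The members' levels spanned a wide range. Per kilobase of annotated exon, dpr7 had the highest level in each of the 4 groups, with 360.0 in WT GFP-positive, 180.0 in WT GFP-negative, 393 in KO GFP-positive and 188 in KO GFP-negative cells. The median member stood at 13.5 per kilobase in WT GFP-positive and 9.71 in WT GFP-negative cells. In WT GFP-positive cells dpr7 was followed by dpr21 at 145, dpr19 at 113, DIP-theta at 68.7 and dpr12 at 54.1 per kilobase, and the lowest were dpr16 at 3.00, DIP-iota at 1.97 and DIP-alpha at 1.79. Most neighbours in this order had overlapping ranges over the 3 libraries; only 4 of the 31 neighbouring pairs did not overlap in WT GFP-positive cells. In that order dpr7 stood apart from dpr21, dpr19 from DIP-theta, DIP-theta from dpr12, and dpr12 from DIP-lambda. DIP-theta ranked 4 of 32 in WT GFP-positive, 20 in WT GFP-negative and 7 in KO GFP-positive cells. The per-kilobase value of dpr21 rests on only 993 annotated exonic bases. Recovered reads per library for a member ran from 39 for DIP-iota to 16520 for dpr7.

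The members are long genes. In the BDGP6.54 annotation their median span was 32.5 kb, against 2.94 kb over the tested genes that the annotation holds. The 32 genes lie on chromosomes 2L (9), 2R (5), 3L (4), 3R (8), 4 (1) and X (5). Some are close neighbours: dpr6 and dpr10 are 8.09 kb apart on 3L, DIP-eta and DIP-theta 8.34 kb apart on the minus strand of 2L, dpr17 and dpr15 27.4 kb apart on 3R, and dpr5 and dpr4 27.5 kb apart on 3R. The libraries keep no strand, so reads from overlapping genes cannot be told apart. In the annotation 6 members share exon bases with another gene, and 2 share over 10%. The exons of dpr4 overlap asRNA:CR45056 over 15.7% of their bases, and those of DIP-theta overlap lncRNA:CR44822 over 12.6%; both noncoding genes were listed at under 1 in each library.

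**Figure D2:**
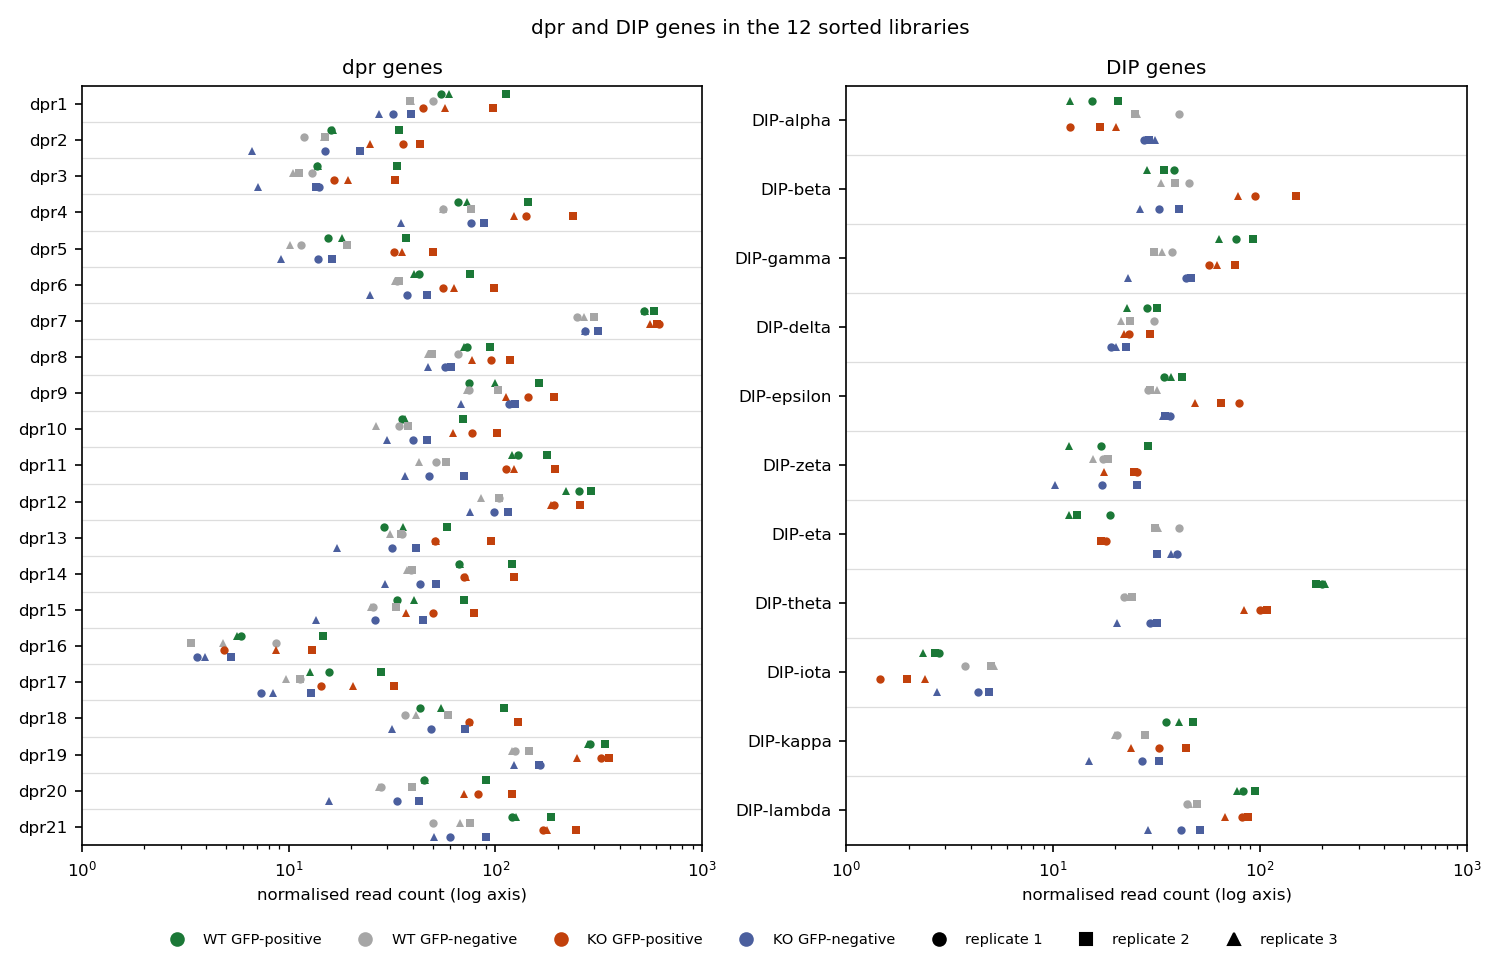
Normalised read count (horizontal log axis) of each of the 32 dpr and DIP genes (vertical axis) in the 12 libraries; colours are the 4 groups and marker shapes the 3 replicates. DIP-theta is highest in the 3 WT GFP-positive libraries, DIP-beta in the 3 KO GFP-positive libraries, and dpr7 has the most reads of any member.

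WT GFP-positive cells were compared with WT GFP-negative cells to describe what Rfx-expressing cells carry. Of the 32 members 11 were higher and 3 lower. The 11 higher ones were dpr7, dpr8, dpr11, dpr12, dpr14, dpr19, dpr21, DIP-gamma, DIP-theta, DIP-kappa and DIP-lambda, and the 3 lower ones were the receptors DIP-alpha, DIP-eta and DIP-iota. These are 34.4% and 9.38% of the members, against 25.7% of all 9912 tested genes called higher and 12.3% called lower (limma on log2 of the value plus 1, two-sided, Benjamini-Hochberg adjusted p under 0.05). The number of higher members depends on the fit. With runs of neighbouring title numbers as a replicate block, limma called 20 members higher and the same 3 lower, and called 30.6% of all tested genes higher. The 9 added members were dpr1, dpr4, dpr5, dpr6, dpr10, dpr15, dpr17, dpr18 and dpr20, with adjusted p from 0.00187 (dpr20) to 0.0498 (dpr4). Over the 32 members the median log2 difference was 0.61, against 0.09 over all tested genes. The pan-neuronal genes moved the same way (9 of 13 higher, 0 lower, median log2 0.87) and the neuroblast genes the other way (12 of 12 lower), and their part in the members' difference was not tested.

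DIP-theta changed most. Its level was 201, 187 and 207 in the WT GFP-positive libraries and 21.9, 24.1 and 22.4 in the WT GFP-negative ones. The groups lie far apart, with replicates that agree closely on each side. The means of 198 ± 10.2 and 22.8 ± 1.16 differ 8.69-fold (log2 3.06, SE 0.15, limma adjusted p = 1.20e-08). Its 2 fellow receptors of dpr1 to dpr5 went the other way. DIP-eta stood at 18.9, 13.1 and 11.9 in GFP-positive and at 40.7, 31.1 and 32.1 in GFP-negative libraries, which do not overlap. It was 2.37-fold lower in GFP-positive cells (log2 -1.21, SE 0.17, limma adjusted p = 0.000125), although it is the near neighbour of DIP-theta on 2L. DIP-iota was scarce, at 2.80, 2.69 and 2.34 in GFP-positive and 3.74, 4.99 and 5.15 in GFP-negative libraries. It was 1.77-fold lower (log2 -0.63, SE 0.21, limma adjusted p = 0.0321). None of their 5 dpr partners was called in the main limma fit, by edgeR or by DESeq2. With the replicate block dpr1, dpr4 and dpr5 were higher, and with lane as a covariate dpr1 and dpr5 were. In a fit of only the groups compared dpr1 was called too, and after quantile normalisation dpr5 was. The log2 differences of the 5 partners ran from 0.51 to 0.75 in the main fit. Of these 5, dpr1 alone had an unadjusted limma p under 0.05 there (0.0250, adjusted 0.0623), against 4628 of all 9912 tested genes.

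DIP-alpha, the receptor of dpr6 and dpr10 that is known from motor neurons and medulla neurons, was the third member to fall. It stood at 15.5, 20.6 and 12.1 in GFP-positive and 40.5, 24.8 and 25.4 in GFP-negative libraries. The lowest GFP-negative library still exceeded the highest GFP-positive one. It was 1.88-fold lower (log2 -0.87, SE 0.23, limma adjusted p = 0.0107). Its partners dpr6 and dpr10 pointed upward, with log2 differences of 0.58 and 0.45, and were called only with the replicate block among the fits of all 12 libraries.

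The DIP-gamma group held a receptor and a ligand that both rose. DIP-gamma and dpr11 are a pair known to match yellow-type R7 photoreceptors with their Dm8 targets in the medulla. DIP-gamma stood at 76.4, 92.7 and 63.4 in GFP-positive and 37.7, 30.8 and 33.5 in GFP-negative libraries, a 2.28-fold difference (log2 1.15, SE 0.23, limma adjusted p = 0.00188). The ligand dpr11 stood at 128, 177 and 120.3 in GFP-positive and 51.6, 57.6 and 42.9 in GFP-negative libraries, a 2.80-fold difference (log2 1.46, SE 0.25, limma adjusted p = 0.000596). The groups of both genes are clearly separate. The other ligands of DIP-gamma, dpr15, dpr16 and dpr17, had log2 differences of 0.71, 0.52 and 0.67 and were not called in the main limma fit. With the replicate block dpr15 and dpr17 were called, and dpr17 was also called after quantile normalisation.

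The ligand dpr12, known from the gamma neurons of the mushroom body, stood at 255, 290.0 and 219 in GFP-positive and 105, 104 and 84.8 in GFP-negative libraries. It was 2.60-fold higher (log2 1.37, SE 0.17, limma adjusted p = 4.89e-05). Its receptor DIP-delta hardly differed, at 27.7 ± 4.55 in GFP-positive and 25.2 ± 4.84 in GFP-negative cells, and the groups overlap (log2 0.14, SE 0.17, limma adjusted p = 0.544).

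Among the ligands shared by DIP-epsilon and DIP-zeta, dpr19 and dpr14 rose. The gene dpr19 stood at 288, 339.6 and 282 in GFP-positive and 124, 145 and 120.2 in GFP-negative libraries, 2.33-fold higher (log2 1.22, SE 0.15, limma adjusted p = 4.85e-05). The gene dpr14 stood at 66.7, 121 and 67.6 in GFP-positive and 39.1, 39.7 and 37.2 in GFP-negative libraries, 2.20-fold higher (log2 1.06, SE 0.27, limma adjusted p = 0.00765), with replicate 2 well above the others. The receptors DIP-epsilon and DIP-zeta had log2 differences of 0.32 and 0.07 and were not called in the main limma fit. Nor were dpr13, dpr18 and dpr20 there, at 0.22, 0.51 and 0.85. With the replicate block dpr18 and dpr20 passed, and dpr20 also passed with lane as a covariate and in a fit of only the groups compared.

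In the DIP-beta group the ligands dpr21 and dpr8 rose, while the receptor did not. The gene dpr21 stood at 120.2, 185 and 126 in GFP-positive and 50.1, 75.7 and 67.3 in GFP-negative libraries, 2.23-fold higher (log2 1.14, SE 0.24, limma adjusted p = 0.00232). The gene dpr8 stood at 72.6, 94.5 and 70.8 in GFP-positive and 65.6, 49.5 and 47.5 in GFP-negative libraries, only 1.46-fold higher (log2 0.54, SE 0.18, limma adjusted p = 0.0294). Its groups nearly touch. DIP-beta had a log2 difference of -0.21 and overlapping groups, and dpr9 one of 0.36.

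The 3 members without a partner group were each higher in WT GFP-positive cells. The most abundant member, dpr7, stood at 522, 587 and 527 against 249, 301 and 267, a 2.00-fold difference (log2 1.00, SE 0.10, limma adjusted p = 7.91e-06). DIP-lambda stood at 83.0, 95.1 and 77.7 against 44.6, 49.5 and 45.2, a 1.84-fold difference (log2 0.86, SE 0.18, limma adjusted p = 0.00213). DIP-kappa stood at 35.2, 47.2 and 40.5 against 20.4, 27.8 and 19.9, a 1.81-fold difference (log2 0.83, SE 0.27, limma adjusted p = 0.0292). The GFP-positive and GFP-negative libraries of these genes do not overlap.

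Of the 14 calls in WT cells, 11 held in every alternative run, the exceptions being dpr8, DIP-iota and DIP-kappa. The call of dpr8 was lost without WT GFP-positive replicate 2 or WT GFP-negative replicate 2 or 3, that of DIP-iota without any WT GFP-positive library or WT GFP-negative replicate 2 or 3, and that of DIP-kappa without WT GFP-positive replicate 2 or 3 or WT GFP-negative replicate 1 or 3. In addition dpr8 was not called by edgeR, by DESeq2 or after quantile normalisation, DIP-kappa not by edgeR, and DIP-iota not after quantile normalisation. Without replicate 2 of all groups the members' median log2 difference was 0.34 rather than 0.61, with 10 higher and 2 lower, dpr8 and DIP-iota being lost. Without the 2 libraries richest in rRNA reads it was 0.32, with 9 higher and 2 lower, dpr8, DIP-iota and DIP-kappa being lost. The balance over all genes depends on the scaling: 67.7% of called genes were higher with limma, 55.6% with edgeR, 51.9% with DESeq2 and 57.1% after quantile normalisation, while the members' counts were 11, 9, 10 and 12 higher and 3, 3, 3 and 2 lower.

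**Figure D3:**
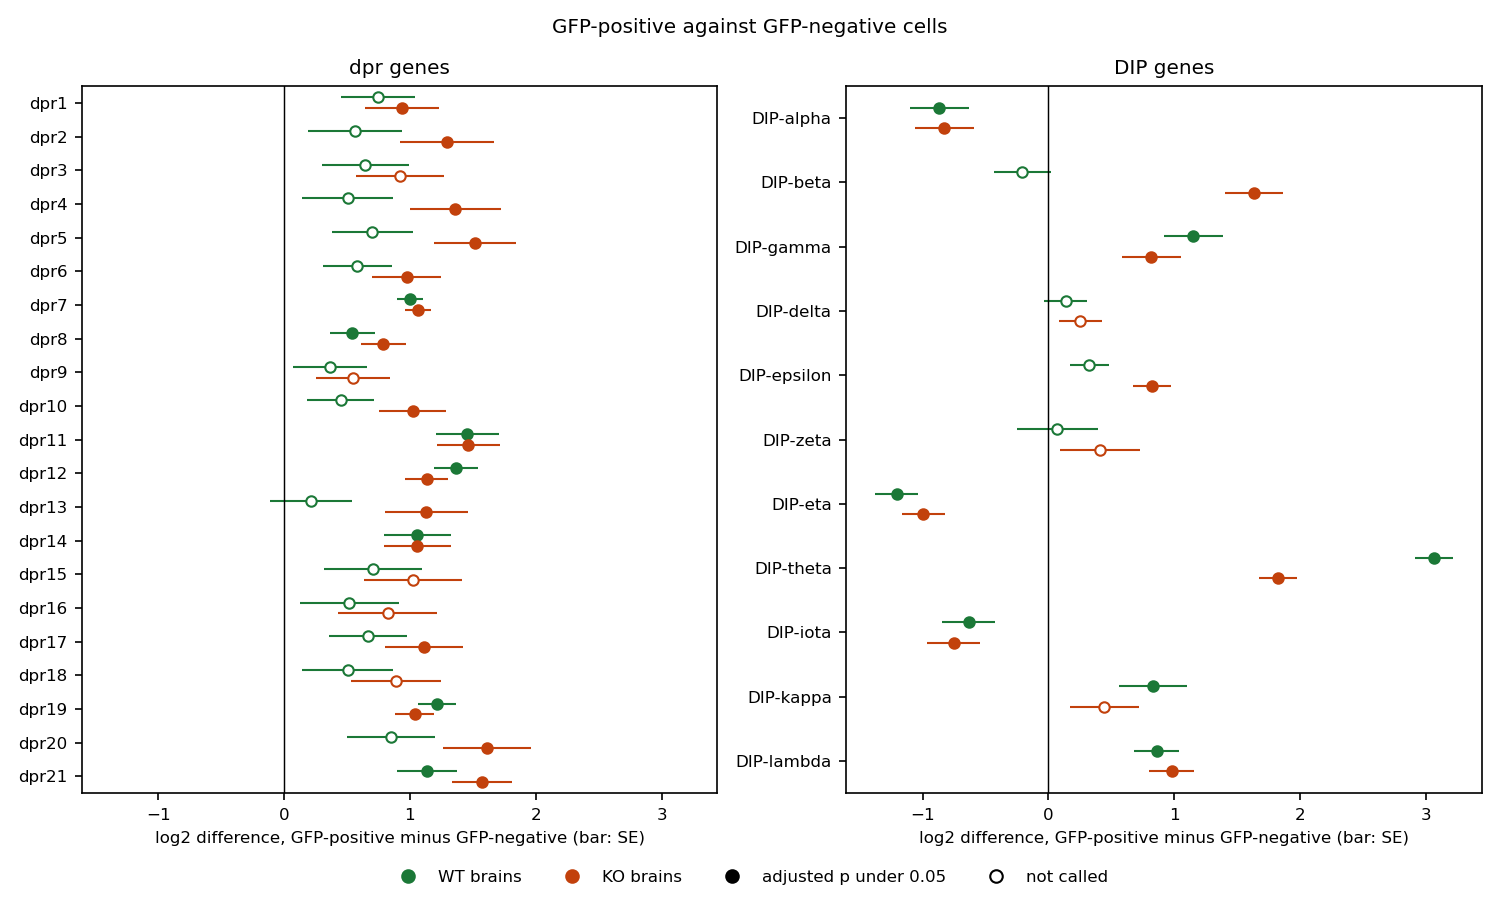
Log2 difference between GFP-positive and GFP-negative cells for the 32 members, in WT and in KO brains; points are limma estimates, bars are ± 1 SE, and filled points passed an adjusted p of 0.05. DIP-theta has the largest difference in WT cells (3.06), and DIP-beta differs in KO cells (1.63) but not in WT cells (-0.21).

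The same comparison in KO brains gave more calls. Of the 32 members 21 were higher and 3 lower in the GFP-positive cells of KO brains, 65.6% and 9.38% of the members, against 23.6% of tested genes called higher and 12.9% called lower by the same limma test. With the replicate block 25 members were higher, dpr3, dpr9, dpr15 and dpr18 being added, against 28.6% of all tested genes, and the same 3 were lower. The median log2 difference was 1.00 over the members and 0.07 over all tested genes. Higher were dpr1, dpr2, dpr4, dpr5, dpr6, dpr7, dpr8, dpr10, dpr11, dpr12, dpr13, dpr14, dpr17, dpr19, dpr20, dpr21, DIP-beta, DIP-gamma, DIP-epsilon, DIP-theta and DIP-lambda. The same 3 receptors as in WT cells, DIP-alpha, DIP-eta and DIP-iota, were lower. Pan-neuronal genes were again higher (11 of 13, median log2 1.08) and neuroblast genes lower (12 of 12), and their part in this was not tested.

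Among the ligands dpr5, dpr20 and dpr21 had the largest folds. The gene dpr20 stood at 82.7, 121 and 70.5 in KO GFP-positive and 33.6, 42.9 and 15.7 in KO GFP-negative libraries, 2.97-fold higher (log2 1.61, SE 0.35, limma adjusted p = 0.00324). The gene dpr5 stood at 32.2, 49.9 and 35.4 against 13.9, 16.3 and 9.16, 2.99-fold higher (log2 1.52, SE 0.32, limma adjusted p = 0.00295). The groups of both genes are separate, with the GFP-negative side drawn down by replicate 3. The ligand dpr21 stood at 171, 247 and 178 against 60.6, 90.6 and 50.4, 2.96-fold higher (log2 1.57, SE 0.24, limma adjusted p = 0.000236). The other higher ligands had folds of 1.76 (dpr8) to 2.78 (dpr11).

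The receptors in KO brains divided as follows. DIP-theta stood at 101, 108 and 84.2 against 29.4, 31.7 and 20.4, which is 3.60-fold (log2 1.83, SE 0.15, limma adjusted p = 1.36e-06). DIP-beta was 3.24-fold higher (log2 1.63, SE 0.23, limma adjusted p = 0.000121), DIP-lambda 1.95-fold, DIP-epsilon 1.83-fold and DIP-gamma 1.72-fold. DIP-eta stood at 17.9, 17.1 and 17.6 against 39.6, 31.7 and 37.0, and was 2.06-fold lower (log2 -0.99, SE 0.17, limma adjusted p = 0.000618). DIP-alpha, at 12.1, 16.8 and 20.1 against 27.4, 29.2 and 31.1, was 1.79-fold lower, and DIP-iota, at 1.46, 1.96 and 2.39 against 4.35, 4.90 and 2.75, was 2.07-fold lower. The libraries of the lower receptors do not overlap, although for DIP-iota they nearly meet. DIP-delta, DIP-zeta and DIP-kappa were not called.

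The number of higher members ranged from 14 to 24 when a library was left out, and among single genes dpr1, dpr2, dpr4, dpr6, dpr13, dpr17 and DIP-gamma lost their call without KO GFP-positive replicate 2. Calls also ended without KO GFP-positive replicate 1 (dpr2, DIP-alpha, DIP-iota), KO GFP-negative replicate 1 (dpr1, dpr17, DIP-iota), KO GFP-negative replicate 2 (DIP-iota) or KO GFP-negative replicate 3 (dpr1, dpr2, dpr6, dpr13, DIP-gamma). The call of DIP-iota was also lost after quantile normalisation and without replicate 2 of all groups. Of all called genes 64.8% were higher with limma, 52.9% with edgeR, 53.7% with DESeq2 and 55.0% after quantile normalisation, with 21, 21, 21 and 24 members higher and 3, 3, 3 and 2 lower. The comparisons in WT and in KO brains set different libraries side by side, but both use the spread estimated over all 12 libraries. The larger number of calls in KO brains is no test of a difference between genotypes, which the interaction gives.

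KO GFP-positive cells were compared with WT GFP-positive cells to describe how the sorted GFP-positive populations differed between genotypes. Among the 32 members DIP-beta and DIP-epsilon were higher and DIP-theta was lower. Called members were thus 6.25% higher and 3.12% lower, against 1.75% and 1.32% of all tested genes (limma, adjusted p under 0.05), a difference that rests on 3 genes. None of the 21 dpr genes was called in the limma fit without a block, by edgeR or by DESeq2. An unadjusted limma p under 0.05 was found for 3 of them (dpr4, dpr5 and dpr10), against 1015 of all 9912 tested genes. With runs of title numbers as a replicate block, limma called 4 dpr genes higher: dpr4 (adjusted p = 0.0227), dpr5 (0.0176), dpr10 (0.00368) and dpr21 (0.0398). That made 6 of 32 members higher, against 2.91% of all tested genes in that fit, and DIP-theta remained the 1 lower member. With lane as a covariate dpr21 was called too. The members' median log2 difference was 0.23, against 0.01 over all tested genes. Without the 2 libraries richest in rRNA reads it was 0.57, against 0.07 over all tested genes. These are WT GFP-positive replicate 2 and KO GFP-positive replicate 3, where the members' median deviation from the group mean was 0.47 and -0.21. Leaving them out thus takes away a high WT and a low KO library. Without replicate 2 of all groups the members' median log2 difference was 0.24, against 0.02 over all tested genes.

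DIP-beta, a receptor known from lamina neurons of the visual system, measured 38.3, 34.5 and 28.3 in WT GFP-positive and 94.3, 149.7 and 78.3 in KO GFP-positive libraries. The lowest KO library exceeded the highest WT library more than the WT libraries differ among themselves. The means of 33.7 ± 5.04 and 107 ± 37.5 differ 3.18-fold (log2 1.60, SE 0.23, limma adjusted p = 0.00109). In GFP-negative cells it stood at 45.2, 38.8 and 33.3 in WT and 32.6, 40.7 and 26.2 in KO libraries. The KO GFP-positive libraries thus exceeded each of the other 9.

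DIP-theta moved in the opposite direction. It stood at 198 ± 10.2 in WT GFP-positive cells and at 97.7 ± 12.3 in KO GFP-positive cells, with no overlap between libraries, and was 2.03-fold lower (log2 -1.02, SE 0.15, limma adjusted p = 0.00156). It remained above the GFP-negative libraries, which held 21.9 to 24.1 in WT and 20.4 to 31.7 in KO brains. Of the 2 other receptors of dpr1 to dpr5, DIP-eta had a log2 difference of 0.27 and DIP-iota one of -0.31, and neither was called.

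DIP-epsilon measured 34.5, 42.1 and 37.3 in WT GFP-positive and 78.9, 65.1 and 48.7 in KO GFP-positive libraries. The groups are separate, though KO replicate 3 lies near the WT libraries. It was 1.69-fold higher (log2 0.72, SE 0.15, limma adjusted p = 0.0216). In GFP-negative cells it stood at 28.9, 29.4 and 31.8 in WT and 36.6, 34.9 and 34.0 in KO libraries.

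Within sequencing lanes the 3 called receptors kept their direction. On lane 6 the log2 differences were 2.22 for DIP-beta, 0.70 for DIP-epsilon and -0.85 for DIP-theta, and on lane 7 they were 1.14, 0.83 and -1.12. The KO side of lane 6 was replicate 2 alone, in which most members sat above their group mean, and the WT side of lane 7 was replicate 1 alone. Over the 32 members 21 were higher and 3 lower on both lanes. Between libraries of the same run of title numbers, 15 were higher and 7 lower in all 3 runs. These counts were not made over all tested genes. DIP-beta and DIP-theta kept their calls in each of 23 alternatives, while DIP-epsilon lost its call in 6, with adjusted p up to 0.134: in a fit of only the 2 groups, without replicate 2 of all groups, and without WT GFP-positive replicate 1 or 3 or KO GFP-positive replicate 1 or 2.

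**Figure D4:**
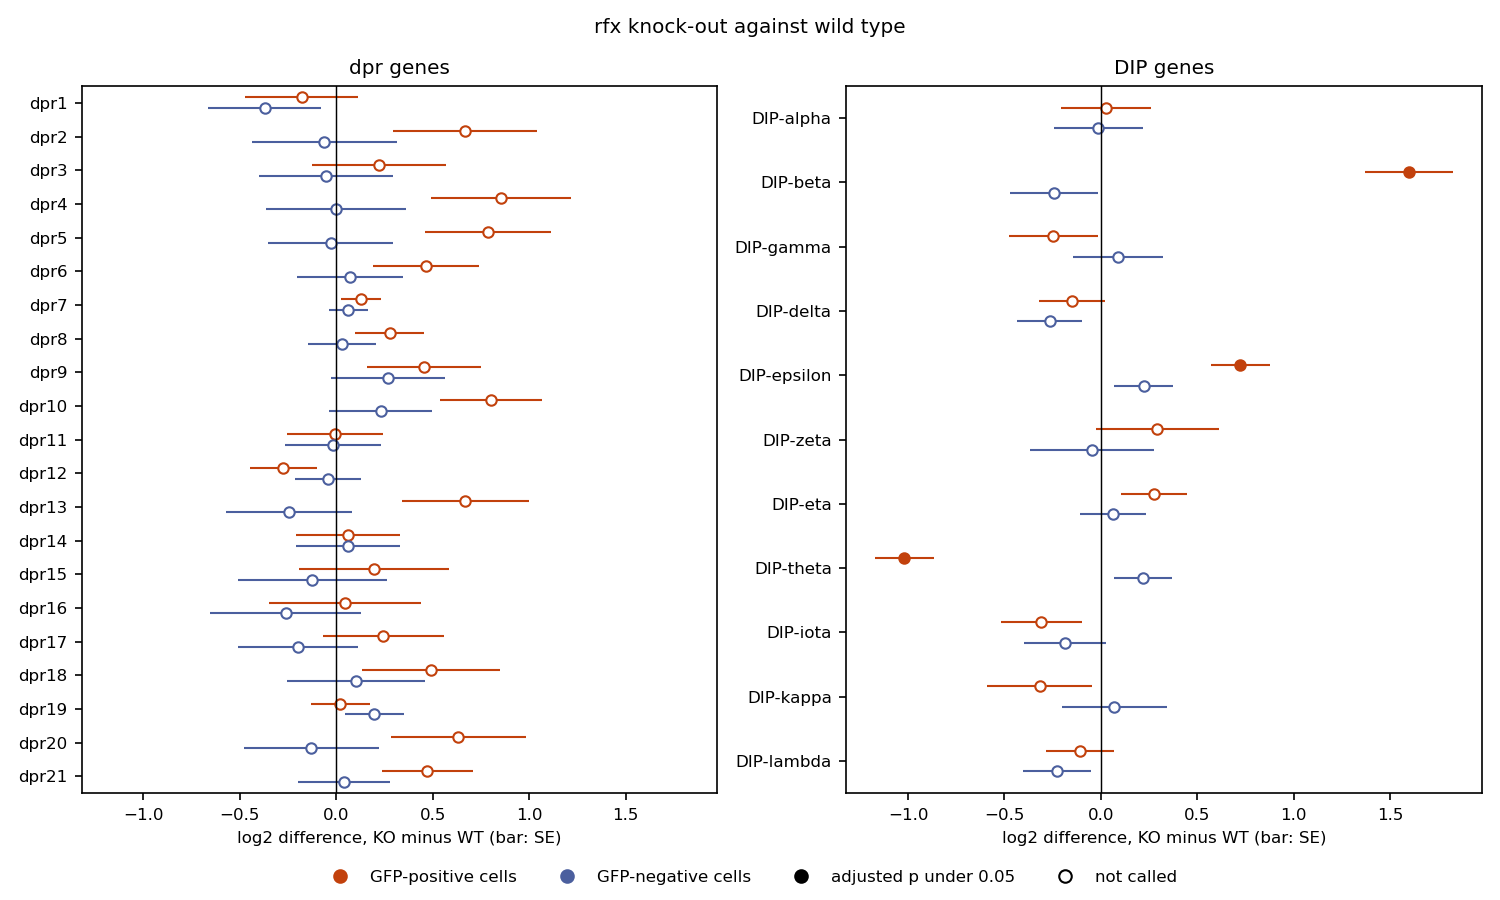
Log2 difference between KO and WT cells for the 32 members, in GFP-positive and in GFP-negative cells; points are limma estimates, bars are ± 1 SE, and filled points passed an adjusted p of 0.05. DIP-beta (1.60), DIP-epsilon (0.72) and DIP-theta (-1.02) passed in GFP-positive cells, and no member passed in GFP-negative cells.

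The ligands of these receptors were not called, apart from dpr4, dpr5 and dpr21 with the replicate block and dpr21 with lane as a covariate. The partners of DIP-beta had log2 differences of 0.28 (dpr8), 0.45 (dpr9) and 0.47 (dpr21). Those of DIP-epsilon ran from 0.02 (dpr19) to 0.67 (dpr13). Among those of DIP-theta, dpr4 and dpr5 had 0.85 and 0.79, with adjusted p of 0.420 and 0.391 by limma. The gene dpr10, a ligand of DIP-alpha, measured 35.3, 69.6 and 36.4 in WT GFP-positive and 76.9, 102 and 62.1 in KO GFP-positive libraries. The groups overlap through WT replicate 2 alone (log2 0.80, SE 0.27, limma adjusted p = 0.202). It was called higher with the replicate block, without WT GFP-positive replicate 2, and without either replicate 2 of all groups or the 2 rRNA-rich libraries. Over the alternatives its adjusted p ran from 0.00368 to 0.608 (limma, edgeR or DESeq2).

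In GFP-negative cells no member was called in KO against WT, with limma, edgeR or DESeq2. None of the 32 had an unadjusted limma p under 0.05, against 797 of all 9912 tested genes. Few genes of any kind were called there: 0.434% of tested genes were higher and 0.252% lower. Log2 differences ran from -0.37 (dpr1) to 0.27 (dpr9), with a median of -0.02. The libraries of only DIP-epsilon did not overlap, with means of 30.0 ± 1.57 in WT and 35.2 ± 1.30 in KO cells (log2 0.22, SE 0.15, limma adjusted p = 0.723). Overlap was not counted over all tested genes, so no share stands beside this gene.

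The interaction of genotype with GFP tests whether the knock-out difference itself differs between the sorted populations. It was called for DIP-beta (log2 1.84, SE 0.32, limma adjusted p = 0.0220) and DIP-theta (log2 -1.24, SE 0.21, limma adjusted p = 0.0206), and for none of the other 30 members. Over all tested genes 0.282% were called higher and 0.272% lower. DIP-beta thus rose by more in GFP-positive cells, where its log2 difference was 1.60, than in GFP-negative cells, where it was -0.24. DIP-theta fell by 1.02 in GFP-positive cells, against a log2 difference of 0.22 in GFP-negative cells. For DIP-epsilon the interaction was not called (log2 0.50, SE 0.22, unadjusted p = 0.0387, limma adjusted p = 1.00). Leaving out a library ended the DIP-beta call in 5 cases (WT GFP-positive replicate 3, WT GFP-negative replicate 1 or 2, KO GFP-negative replicate 1 or 3), with adjusted p up to 0.0706 by limma. It ended the DIP-theta call in 5 cases (WT GFP-positive replicate 1 or 3, WT GFP-negative replicate 1 or 3, KO GFP-negative replicate 1), with adjusted p up to 0.0925 by limma, and so did leaving out replicate 2 of all groups or the 2 libraries richest in rRNA reads.

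**Figure D5:**
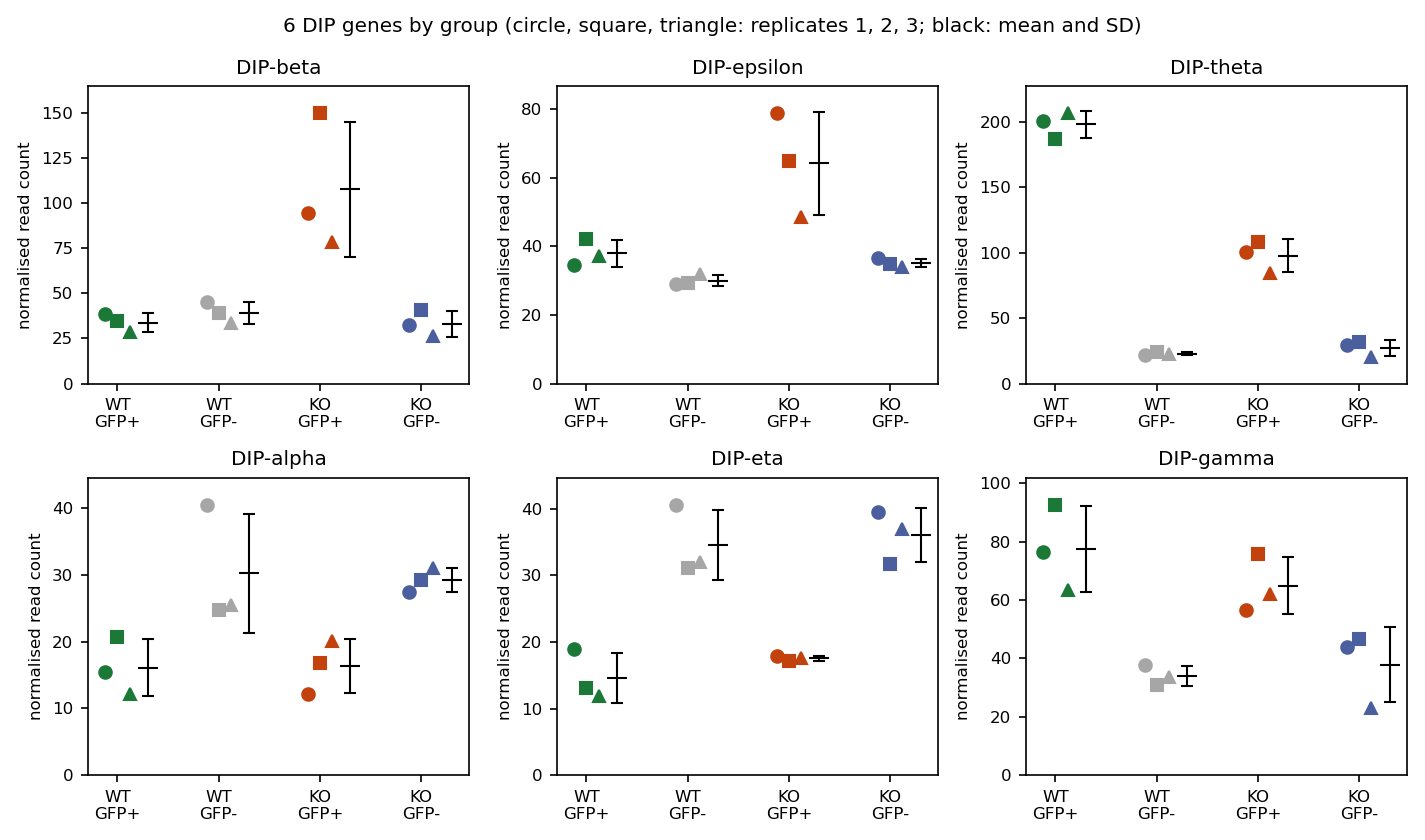
Levels of 6 DIP genes in the 4 groups (normalised read count, vertical axis from 0); coloured points are the 3 libraries of a group, and the black marker beside them is their mean ± SD. DIP-beta is highest in KO GFP-positive cells (107) and DIP-theta in WT GFP-positive cells (198).

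Other genes of the immunoglobulin superfamily, and cDIP, were set beside the members. The secreted protein cDIP, known to bind several Dprs and DIPs, was scarce in every group, at 1.22 ± 0.329 in WT GFP-positive and 2.59 ± 0.750 in WT GFP-negative cells (log2 -0.68, SE 0.24, limma adjusted p = 0.0387). Of 13 tested genes of the beat family and 8 of the side family, another set of paired surface proteins, 10 and 5 were higher in WT GFP-positive cells and 0 and 1 were lower (beat median log2 0.92, side 0.89, members 0.61). The 22 further genes of the superfamily had 8 higher and 2 lower, and the 7 closest relatives of the members 3 higher and 3 lower. In the knock-out comparison within GFP-positive cells 0 beat and 0 side genes were called. Of the 22 further genes 4 were higher there and 0 lower: Fas2 (log2 0.66), Fas3 (0.71), Dscam2 (0.82) and Dscam3 (0.94), which encode homophilic cell surface proteins. Among the 7 relatives klg alone was called (log2 0.61, SE 0.13, limma adjusted p = 0.0276). In GFP-negative cells no gene of these lists was called in KO against WT with limma.

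Marker lists of other cell types were read beside these comparisons. In WT cells 7 of 13 glial genes were lower and 2 higher in the GFP-positive libraries, and their summed level ran from 485 to 506 against 796 to 1036. Among the genes not called was repo, at 22.8, 25.7 and 4.61 in GFP-positive and 19.4, 17.5 and 16.5 in GFP-negative libraries. Of 6 tested hemocyte genes 4 were higher: the collagen genes Col4a1 (log2 2.65) and vkg (2.70), Pxn (1.69) and crq (0.73). The summed level of the 7 hemocyte genes in the table ran from 164 to 332 against 66.0 to 93.1. Among the defining markers, Hml, NimC1 and srp were at most 5.57, 1.43 and 1.95 in any library. Of 6 muscle genes 1 was lower, with sums of 64.6 to 109 against 68.7 to 87.5. Of 8 optic lobe and eye genes 4 were higher and 2 lower, with sums of 1717 to 1733 against 1035 to 1161. In KO against WT GFP-positive cells 0 of 13 pan-neuronal, 0 of 13 glial, 0 of 6 hemocyte and 0 of 6 muscle genes were called, while the optic lobe genes dac and ey were each higher by 0.92 on the log2 scale, and tll of the neuroblast list by 0.73. The part of these cell types in the members' differences was not tested.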

How the data were processed

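The deposited table gives a normalised signal for 12610 genes in 12 libraries. Per the labels' protocols, 4 ng of total RNA per sample went into SMARTer Ultra Low and Nextera libraries. The submitters' processing notes list the build BDGP6, edgeR 3.10.5, HTSeq 0.6.1 and TopHat2 2.0.13; their order and settings are not given in the sources used here. Within a tolerance of 0.001, 100% of the deposited signal values were whole multiples of what 1 read is worth in their library, so values are read counts over an effective library size, and whole reads were recovered. Deposited columns that match no sample numbered 0.

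Because the values are not counts as deposited, limma 3.58.1 in R 4.3.3 was used, with its trend option, after adding 1 and taking log2, with group means of all 12 libraries, over genes with a value of at least 1 in at least 3 libraries. Fold changes on this scale understate the change of low genes; a fold in the text is a ratio of group means. Benjamini-Hochberg adjustment ran over all 9912 tested genes. With 3 libraries on each side, the smallest exact permutation p is 0.1. Tests were checked on simulated data.

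Of 12610 identifiers, 12389 were found in the BDGP6.54 annotation (Ensembl release 115), the source of names and positions. Alternatives were edgeR 4.0.16 and DESeq2 1.42.0 on recovered reads, a pseudocount of 0.25, no filter, a floor of 5, quantile normalisation, only the groups compared, lane as a covariate, runs of title numbers as a block, and fits without libraries. Replicate 1 comprises title numbers 13 to 16, replicate 2 numbers 1 to 4, and replicate 3 numbers 5 to 8. These runs are the replicate block; they come from the title numbers, and the labels do not say what a run shares. Over the 12 pairs of same-run libraries whose groups were compared, deviations from the group means correlated at 0.11 to 0.60, each above 0.1, so values with the block are given beside the results they change. Over all 18 same-run pairs the correlations ran from -0.34 to 0.60 (median 0.31), against a median of -0.13 over the 36 pairs from different runs. Deviations cancel within each group by construction, so positive same-run values bring negative ones elsewhere. The -0.13 is therefore no separate baseline. For 10 of 12 libraries the best correlated library of another group was of the same run. Lanes were 6 for title numbers 1 to 6 and 7 for the others. The members, gene lists and partner groups were chosen with earlier results of these data known, so no list is independent support. The rule for names covers all 32 members, Rfx, cDIP and up to 4 called genes of a list with the smallest p. The marker genes repo, Hml, NimC1 and srp were named after their values were seen. Sequences were not used here.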

Additional observations from a re-analysis of the deposited data

Results flagged for a closer look

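In 2 members the knock-out difference itself differed between GFP-positive and GFP-negative cells, by the interaction term of the limma fit. For DIP-beta the interaction was 1.841 on the log2 scale (SE 0.32, limma adjusted p = 0.0220). Each KO GFP-positive library exceeded the other 9 libraries. For DIP-theta the interaction was -1.238 (SE 0.21, limma adjusted p = 0.0206), with each KO GFP-positive library below the 3 WT GFP-positive libraries and above all GFP-negative ones. The call was lost for DIP-beta in 5 of 22 alternatives and for DIP-theta in 7 of 22. No group had enough libraries to look for a single outlying sample.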

How the results depend on the processing

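No member reversed its direction among those called. With runs of title numbers as a replicate block, 20 members were higher in WT GFP-positive cells, and 6 were higher in KO GFP-positive cells: dpr4, dpr5, dpr10, dpr21, DIP-beta and DIP-epsilon. For GFP in KO cells the block gave 25 higher; beyond the members it added to these 3 comparisons, it changed no other call. In a fit of only the groups compared, 1 member was higher in KO GFP-positive cells. Leaving out each library in turn gave 9 to 12 higher and 2 to 3 lower members for GFP in WT cells, 14 to 24 and 1 to 3 for GFP in KO cells, 1 to 3 and 1 for the knock-out in GFP-positive cells, and 0 to 1 in each direction for the interaction. The interaction was lower in 0 members when title numbers 1 to 4 were left out, and likewise in 0 when the 2 libraries with most rRNA were. Leaving out a library also added calls: for GFP in WT cells dpr1 (without WT GFP-positive replicate 1 or KO GFP-positive replicate 2), dpr5 (without WT GFP-negative replicate 2), dpr20 (without KO GFP-negative replicate 3) and DIP-epsilon (without KO GFP-positive replicate 3), and for GFP in KO cells dpr3 (without WT GFP-positive replicate 2 or KO GFP-positive replicate 1), dpr15 (without WT GFP-positive replicate 2, KO GFP-positive replicate 3 or KO GFP-negative replicate 2) and dpr18 (without WT GFP-positive replicate 2 or KO GFP-negative replicate 2). Over all members and alternatives 61 calls were lost, 54 were gained and 3528 values kept their side of the threshold. Depth is lowest for DIP-iota, at 39 reads in its poorest library.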
